A study of Mus musculus with 6 samples.

Results

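Secreted Wnt antagonists are proteins that cells release to hold back Wnt signalling. The 10 genes described here were chosen by name: Wif1, Sfrp1, Sfrp2, Sfrp4, Sfrp5, Frzb, Dkk1, Dkk2, Dkk3 and Sost. They are 10 of the 19938 genes that had a value. All 10 were on the array, each with 1 probe set naming that gene only, and 9 passed the filter on dim genes. Frzb did not.

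The study sorted Cxcl12-abundant reticular (CAR) cells, stromal cells with a very high level of the chemokine gene Cxcl12, from the marrow of mouse femur and tibia. All samples came from C57BL/6 mice of 7 weeks with the genotype Dmp1-Cre Cxcl12-gfp/+, so that both groups carried the Cre transgene and 1 green fluorescent Cxcl12 allele. The groups were CAR cells targeted by Dmp1-Cre and CAR cells not targeted by it, with 3 arrays each. Regulatory sequence of Dmp1 drives this Cre, and Dmp1 itself encodes a bone matrix protein made by maturing osteoblasts and by osteocytes. The label that told targeted from non-targeted cells in the sort is not given in the sources used here. The samples of a group are labelled as biological replicates, each holding the cells of 1 mouse. The series' design text names 3 mice for both populations, so the 6 samples may come from the same 3 mice and need not be independent between the groups. The comparison addressed how the targeted subset differs from the other CAR cells.

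Wnt proteins bind a Frizzled receptor together with Lrp5 or Lrp6 and thereby stabilise beta-catenin, which acts in the nucleus with TCF and LEF factors. In bone this signal promotes osteoblast formation. Wif1 and the Sfrp proteins, which include Frzb, bind Wnt ligands outside the cell. Dkk1, Dkk2 and sclerostin, the product of Sost, bind Lrp5 and Lrp6 instead, with Kremen proteins as partners of Dkk1 and Lrp4 as a partner of sclerostin. Dkk3 is the divergent member of its family.

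The arrays' median intensities ran from 79.4 to 87.5, and any pair of arrays correlated at 0.91 to 0.96 over the log2 values of the genes tested. Dmp1 was higher on all targeted arrays, at 9.89 to 11.28, than on the non-targeted ones, at 6.91 to 7.51. Cxcl12 ranged over 12.22 to 12.40 with targeting and 12.32 to 12.65 without it. All 10 CAR cell markers passed the filter on dim genes. All 10 were lower on average in targeted cells, with a median difference of -0.29, and 0 passed the adjusted threshold. For 2 of them the targeted arrays lay below all others, against 5.76% of all genes tested. Of all genes tested 48.9% were higher. Over the 13292 genes tested with limma, 0 passed an adjusted p of 0.05 (0%), and 634 (4.77%) had an unadjusted p under 0.05. For 9.07% of the genes tested the groups had no overlap between their arrays. Among the 9 antagonist genes tested 0 passed the adjusted threshold, while 1, Wif1, had an unadjusted p under 0.05 and arrays that did not overlap, a share close to the background for overlap. Values below are log2 intensities, and differences are targeted minus non-targeted on the log2 scale. Levels of different genes are not set against each other, because probe sets differ in brightness.

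Wif1, the Wnt inhibitory factor that binds ligands directly, differed most among the 10. Its level was 12.25, 11.77 and 11.95 in targeted cells, against 11.06, 11.20 and 11.17 in non-targeted cells. Every targeted array lay above every non-targeted array, with a gap of 0.57 between them. Targeted cells were at 11.99 ± 0.24 and non-targeted cells at 11.15 ± 0.07 (SD, n = 3 each), a 1.80-fold difference. The log2 difference was 0.85 (SE 0.17, 95% interval 0.45 to 1.24, or 1.37-fold to 2.36-fold). By unadjusted p Wif1 was 19th of the 13292 genes, and it did not pass over all of them (limma, adjusted p = 0.701). The targeted arrays spread more widely than the non-targeted ones, with targeted replicate 1 the highest. Leaving out each array in turn gave differences of 0.71 to 0.96, the lowest without targeted replicate 1.

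**Figure D1:**
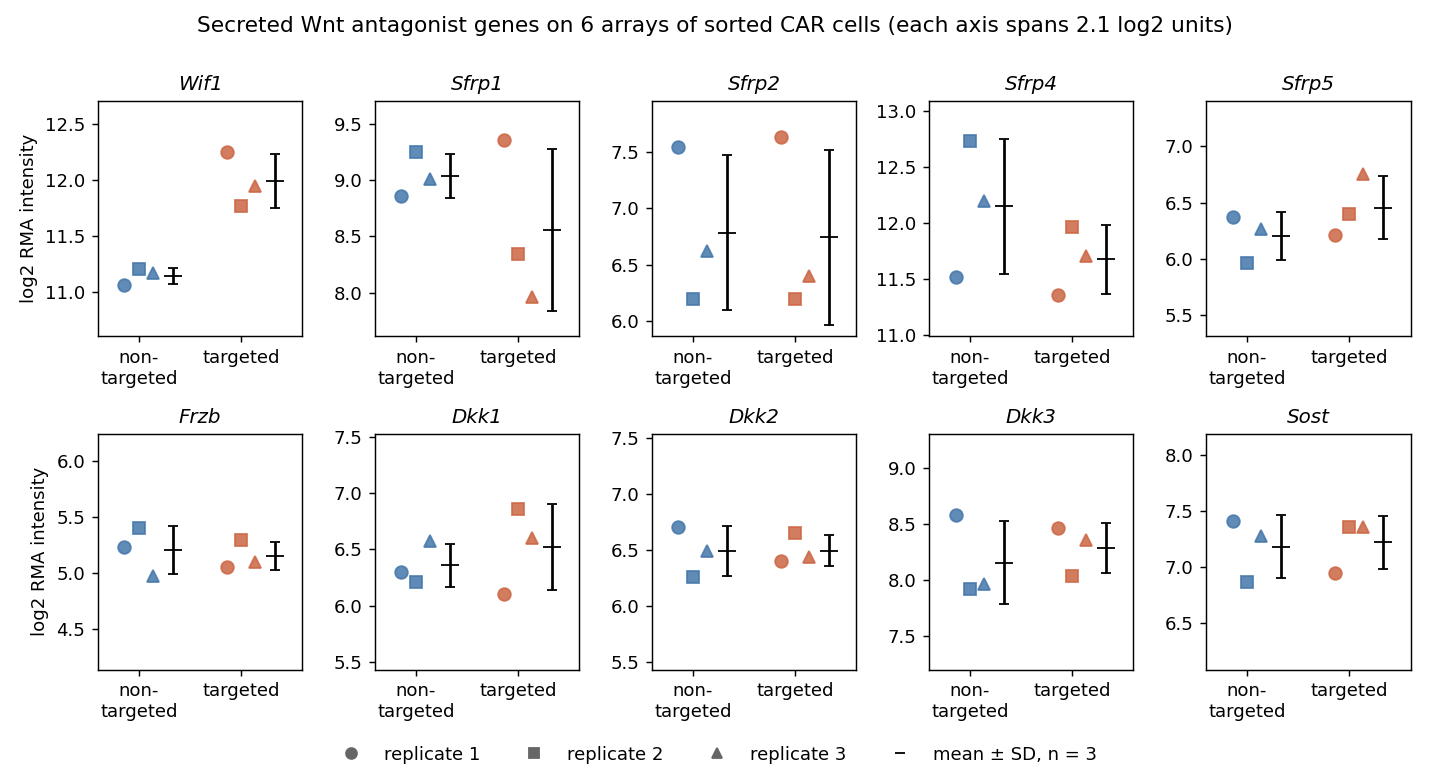
Log2 RMA intensity (vertical axes, each spanning the same number of log2 units) of the 10 genes in non-targeted (blue) and targeted (orange) CAR cells; symbols are replicates 1 to 3 and bars the mean ± SD of 3 arrays. The groups separate for Wif1, at 11.77 to 12.25 against 11.06 to 11.20, and overlap for the other 9 genes.

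The 250 bases before the annotated start of Wif1 are shown because it is the member that differed most, beside those of Dkk1, a gene known to be switched on by Wnt signalling. Sequences and positions are from RefSeq, build GRCm38.p6, where 7 of the 10 genes had an entry. Wif1 lies on the plus strand at chr10:121033754-121034003 and Dkk1 on the minus strand at chr19:30549497-30549746. Capitals mark matches, on either strand, to a TCF and LEF core (CTTTGA), a RUNX core (TGTGGT) and a GC box (GGGCGG), none of which overlap.
Wif1: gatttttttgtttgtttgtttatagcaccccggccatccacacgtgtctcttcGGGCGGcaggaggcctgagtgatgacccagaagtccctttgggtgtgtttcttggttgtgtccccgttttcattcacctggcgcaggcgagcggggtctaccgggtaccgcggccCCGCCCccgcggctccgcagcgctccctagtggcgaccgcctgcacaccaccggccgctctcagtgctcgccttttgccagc
Dkk1: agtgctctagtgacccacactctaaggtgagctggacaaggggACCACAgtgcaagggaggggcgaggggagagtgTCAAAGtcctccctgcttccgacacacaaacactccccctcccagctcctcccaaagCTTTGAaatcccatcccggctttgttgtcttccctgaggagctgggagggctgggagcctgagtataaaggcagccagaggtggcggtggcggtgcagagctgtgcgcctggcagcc

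The Wif1 window held 2 GC boxes, starting 197 and 82 bases before the start, and neither of the other motifs. The Dkk1 window held 2 TCF and LEF cores, beginning 174 and 117 bases before the start, and 1 RUNX core at 207 bases. Of 32851 such windows in the table, 13.8% held the TCF and LEF core, 14% the RUNX core and 32.7% the GC box. Among the 7 antagonist windows the counts were 2, 2 and 4. A match describes letters in this window and was not tied to any measurement on the arrays.

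Genes with a pattern like that of Wif1 were sought over the 6 arrays. The 3 closest were Mmp13 (Pearson r = 0.997), a collagenase of bone remodelling, Mef2c (r = 0.99), a transcription factor, and Tmem38b (r = 0.978), an ion channel gene of the endoplasmic reticulum. With 13292 genes and 6 arrays, close matches are easily found, and 16 genes exceeded r = 0.95 with Wif1. Mef2c was at 8.29, 8.04 and 8.08 in targeted cells and 7.33, 7.52 and 7.50 in non-targeted cells, a difference of 0.68 (SE 0.15). Mmp13 differed by 1.04, and neither gene passed (limma, adjusted p = 0.701 each). Both have targeted replicate 1 as their highest array, as Wif1 does.

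Several marker lists moved with Wif1 over the 6 arrays. The mean of the osteoblast list correlated with it at 0.96, osteocyte markers at 0.91 and periosteal and fibroblast markers at 0.83. Neutrophil markers (r = -0.72) and CAR cell markers (r = -0.46) ran the other way. The osteocyte mean includes Dmp1, which differed by 3.28 between the groups. The other osteocyte markers tested differed by only -0.22 (Phex) to 0.39 (Fam20c). How a mean of that list without Dmp1 would run with Wif1 was not tested. Of 12 osteoblast markers 8 had a value, Mmp13 among them, while Runx2, Bglap, Bglap2 and Spp1 had none. All 8 passed the filter and were higher on average in targeted cells, from 0.05 for Ibsp to 1.11 for Alpl. Their median difference was 0.46 against -0.01 over all genes tested. For 4 of the 8 the targeted arrays lay above all others, against 3.32% of all genes tested, and 0 passed the adjusted threshold. Their summed linear intensity ran from 15730 to 24930 with targeting and from 12130 to 15060 without it. Their mean log2 level was 10.61 on targeted replicate 1 and 9.92 and 10.09 on the other targeted arrays, against 9.57, 9.67 and 9.58 in non-targeted cells. The part of these marker lists in the Wif1 difference was not tested. In RNA from sorted populations, more cells that express a gene and more RNA of it per cell cannot be told apart.

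Of the Sfrp proteins, which share a Frizzled-like domain that binds Wnt ligands, Sfrp4 and Sfrp1 were lower on average in targeted cells with arrays that overlapped. Sfrp4 was at 11.36, 11.97 and 11.71 in targeted cells and 11.52, 12.73 and 12.20 in non-targeted cells. The targeted arrays lay within or below the non-targeted range, and the lowest array of each group was replicate 1. The difference was -0.47 (SE 0.31, 95% interval -1.20 to 0.25, limma, adjusted p = 0.9998). It was -0.79 without non-targeted replicate 1 and -0.18 without non-targeted replicate 2, so its size rested on single arrays.

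Sfrp1 was at 9.36, 8.34 and 7.96 in targeted cells and 8.86, 9.25 and 9.01 in non-targeted cells. Targeted replicate 1 was the highest of all 6 arrays, while the other targeted arrays were the lowest. The difference was -0.48 (SE 0.34, 95% interval -1.27 to 0.30, limma, adjusted p = 0.9998). Without targeted replicate 1 it was -0.89 (unadjusted p = 0.00321, limma, adjusted p = 0.381), and without targeted replicate 3 it was -0.19. CAR cell markers had mean log2 levels of 11.49, 11.12 and 11.17 in targeted cells and 11.40, 11.76 and 11.55 in non-targeted cells, close to the order of Sfrp1 over the arrays (r = 0.87, n = 6), though with another array as the highest. Targeted replicate 1 stood apart in other genes as well: neutrophil markers had a mean log2 level of 6.52 there against 8.81 to 10.13 on the other 5 (median difference -1.34 between the groups, 1 of 7 tested higher), and periosteal and fibroblast markers 9.32 against 7.92 to 8.45. Sfrp1 followed these lists less closely (r = -0.37 and 0.12). The part of the 3 lists in the Sfrp1 values was not tested.

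Sfrp2 differed far more within the groups than between them. It was at 7.63, 6.20 and 6.40 in targeted cells and 7.54, 6.19 and 6.62 in non-targeted cells. Replicate 1 of both groups stood well above the other arrays, none of which exceeded 6.62, and the means were 6.74 and 6.79. The difference was -0.04, with a 95% interval of -1.10 to 1.01, so that 2-fold differences in either direction lie within it. That interval takes the arrays as unpaired. Same-numbered arrays differed by 0.09, 0.0069 and -0.22 for replicates 1 to 3, but it is not known whether they share a mouse. Leaving out single arrays moved the difference between the group means to between -0.49 and 0.34. Detection calls were not used, so it is not known whether the lower arrays measured Sfrp2 RNA above background.

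Sfrp5 was at 6.21, 6.40 and 6.76 in targeted cells and 6.37, 5.96 and 6.27 in non-targeted cells. Both the highest array and the highest mean were in targeted cells, but targeted replicate 1 lay below 2 of the non-targeted arrays. The difference was 0.26 (95% interval -0.20 to 0.71), and leaving out single arrays gave 0.11, without targeted replicate 3, to 0.38. Frzb was dim, at 5.06, 5.30 and 5.10 in targeted cells and 5.24, 5.41 and 4.98 in non-targeted cells, below the filter at a log2 intensity of 6.00. It was not tested, and its group means of 5.15 and 5.21 differed by less than the SD of either group (0.13 and 0.22, n = 3).

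**Figure D2:**
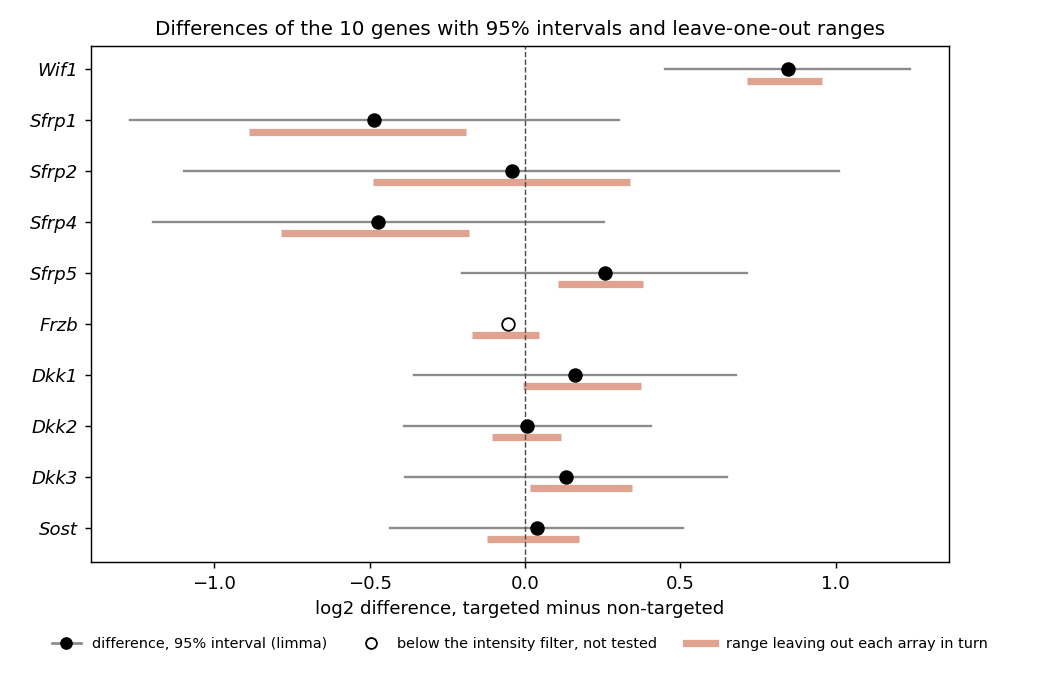
Log2 difference (horizontal axis, targeted minus non-targeted) of each gene with its 95% interval from limma (grey line), and the range when each array is left out in turn (orange bar); the open point is Frzb, which was not tested. The interval lies above 0 for Wif1, at 0.45 to 1.24, and includes 0 for the other 8 genes tested.

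Of the genes whose products act on Lrp5 and Lrp6, none separated the groups. Sost, the osteocyte gene for sclerostin, was at 6.95, 7.35 and 7.36 in targeted cells and 7.41, 6.86 and 7.28 in non-targeted cells. The highest and the lowest array were both non-targeted, and the targeted arrays lay between them. The difference was 0.04 (SE 0.20, 95% interval -0.43 to 0.51, limma, adjusted p = 0.9998). Dmp1, another osteocyte gene and the one whose regulatory sequence drives the Cre, differed by 3.28 on the same arrays. Of 6 osteocyte markers tested, Dmp1 included, 4 were higher and 2 lower in targeted cells, with a median difference of 0.12. The genes closest to Sost were Ms4a15 (r = 0.999), Ooep (r = 0.999) and Clec2l (r = 0.997), and 251 genes exceeded r = 0.95 with it, against 16 for Wif1. Without detection calls it is not known whether this probe set measured Sost RNA above background, so the interval bounds the probe set's signal and not the transcript.

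Dkk1 was at 6.10, 6.86 and 6.60 in targeted cells and 6.30, 6.21 and 6.57 in non-targeted cells. Targeted cells held both the highest and the lowest of the 6 arrays, and the difference was 0.16 (95% interval -0.36 to 0.68). Dkk2 was at 6.40, 6.65 and 6.43 in targeted cells and 6.70, 6.26 and 6.49 in non-targeted cells. Its difference of 0.0072 (95% interval -0.39 to 0.41) was the smallest of the 10. Dkk1, Dkk2, Sfrp5 and Frzb had means below the median of all genes with a value, 6.60. For these probe sets too it is not known whether they measured RNA above background. The intervals of Dkk1, Dkk2 and Sfrp5 therefore bound the signal of the probe sets and not the transcripts.

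Dkk3 was at 8.46, 8.04 and 8.36 in targeted cells and 8.58, 7.92 and 7.96 in non-targeted cells. Non-targeted replicate 1 and targeted replicate 1 were its highest arrays, and the difference was 0.13 (SE 0.22, 95% interval -0.39 to 0.65). Without non-targeted replicate 1 it was 0.34, and without non-targeted replicate 2 it was 0.015. Each of the 8 tested genes other than Wif1 had an adjusted p of 0.9998 with limma.

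Over all 10 genes 6 were higher and 4 lower in targeted cells, with a median difference of 0.02. Over all genes tested 48.9% were higher, with a median of -0.01.

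Several members varied together over the arrays irrespective of group. Sfrp2 and Dkk3 were both highest on the replicate 1 arrays (r = 0.81 over 6 arrays), and Sfrp4 was lowest there (r = -0.89 with Dkk3). Sfrp1 ran opposite to Sfrp5 (r = -0.89), and Dkk2 followed Sost (r = 0.83). These are the larger of 45 correlations over the same 6 arrays and describe those arrays only. The closest gene to Sfrp2 was Aebp1 (r = 0.981), which encodes a matrix-associated protein, and the closest to Dkk3 was Col6a2 (r = 0.981), a collagen VI chain. Those closest to Sfrp4 and Sfrp1 were Vipr2 (r = 0.992), a receptor for vasoactive intestinal peptide, and Pex3 (r = 0.998), a gene of peroxisome formation. Periosteal and fibroblast markers had mean log2 levels of 8.35, 7.92 and 7.97 in non-targeted cells and 9.32, 8.40 and 8.45 in targeted cells, so that replicate 1 was also the highest of each group. Of 10 such markers 9 had a value and 7 were tested, 6 of them higher in targeted cells, with a median difference of 0.29. Their summed linear intensity ran from 5382 to 13420 with targeting and from 5735 to 6577 without it. The mean of this list correlated with Sfrp2 and Dkk3 at 0.65 each, and more closely with Sfrp4 (r = -0.81) and Wif1 (r = 0.83). The part of these markers in the values of any of these genes was not tested.

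**Figure D3:**
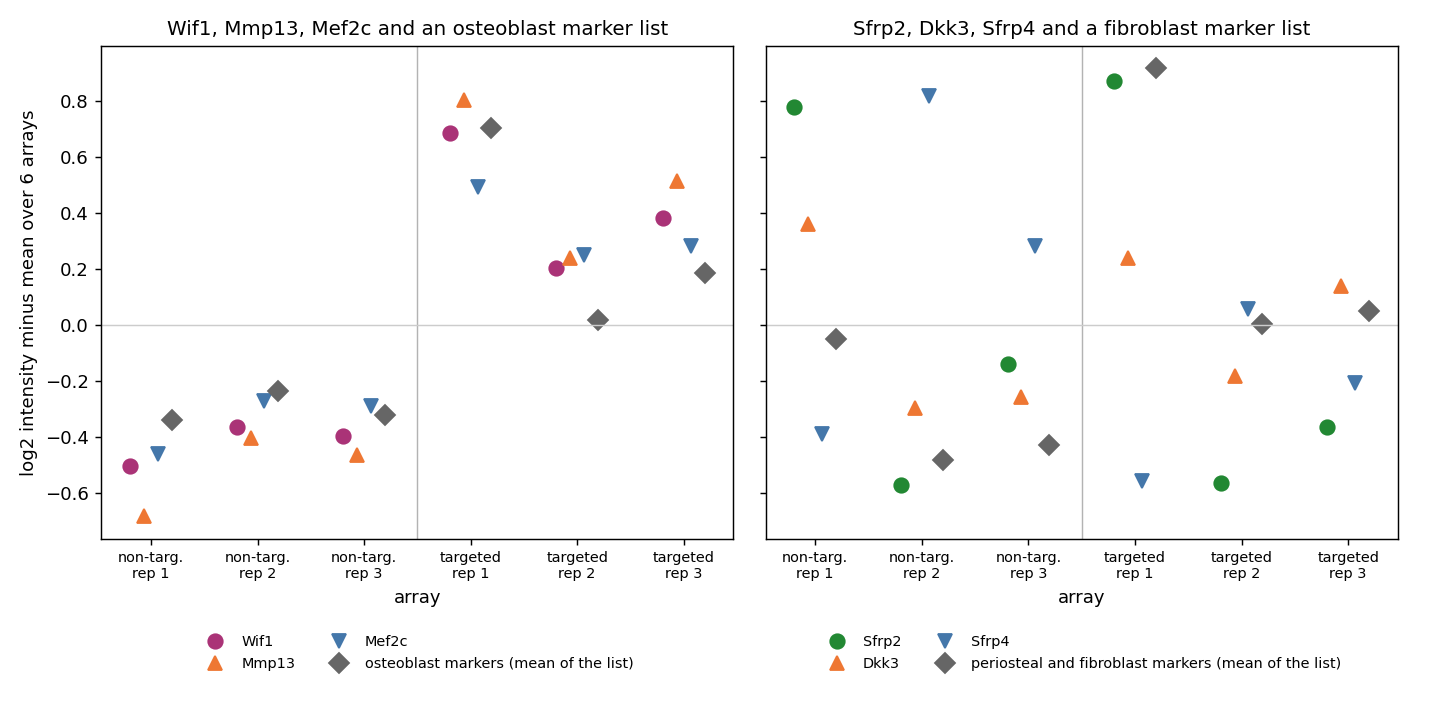
Log2 intensity minus the mean over the 6 arrays (vertical axis) on each array (horizontal axis); left, Wif1, Mmp13, Mef2c and the mean of 8 osteoblast markers, right, Sfrp2, Dkk3, Sfrp4 and the mean of 7 periosteal and fibroblast markers. On the left all points of the targeted arrays lie above all points of the non-targeted arrays; on the right Sfrp2 stands highest on replicate 1 of both groups, at 7.54 and 7.63 before centring.

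Among the receptors and co-receptors on which these antagonists bear, Lrp4 had the smallest p. Lrp4, which holds sclerostin at the cell surface, was at 9.17, 7.85 and 8.30 in targeted cells and 7.38, 7.25 and 6.89 in non-targeted cells. All targeted arrays lay above all non-targeted ones. It was 2.41-fold higher, with a difference of 1.27 (SE 0.33, 95% interval 0.51 to 2.03), and did not pass (limma, adjusted p = 0.758). Without targeted replicate 1 the difference was 0.90. The Frizzled gene Fzd1 was at 8.48, 8.60 and 7.79 in targeted cells and ranged over 8.72 to 9.15 in non-targeted cells. Fzd7 was at 8.19, 8.17 and 8.43 against 8.47, 8.90 and 8.63. Both were lower on every targeted array, by differences of -0.67 (95% interval -1.23 to -0.10) and -0.40 (95% interval -0.80 to -0.005), and neither passed (limma, adjusted p = 0.970 and 0.9998). Without targeted replicate 3 the difference of Fzd1 was -0.42. Of 16 receptors and co-receptors tested 8 were higher and 8 lower, with a median of 0.0044. For 1 of them, Lrp4, the targeted arrays lay above all others, against 3.32% of all genes tested. For 3 of them, Fzd2 with Fzd1 and Fzd7, they lay below all others, against 5.76%.

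Of 8 other secreted Wnt antagonists, Notum and Dkk4 among them, 6 were tested, 4 higher and 2 lower (median 0.04), and 0 had separate arrays. The one with the smallest p was Trabd2b, a protease that inactivates Wnt proteins, with a difference of -0.40 (95% interval -1.16 to 0.35), which turned to 0.025 when its 2 probe sets were averaged. Of 21 ligand and secretion genes 14 were tested, 10 higher and 4 lower (median 0.04), with Porcn, the enzyme that acylates Wnt proteins, at 0.44 (95% interval -0.05 to 0.94). Of 7 tested genes for R-spondins, their Lgr receptors and the E3 ligases they restrain, 3 were higher and 4 lower (median -0.02). In that list Znrf3, a ligase that removes Frizzled receptors, was lower on every targeted array (difference -0.48, 95% interval -0.89 to -0.07), and Rspo2, an enhancer of Wnt signalling, differed by -0.68 with overlapping arrays. Znrf3 was 1 of the 7 with targeted arrays below all others, against 5.76% of all genes tested. No gene of these lists passed over all genes tested.

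Downstream, Ctnnb1, which encodes beta-catenin, was at 9.39, 8.62 and 8.98 in targeted cells and 8.53, 8.46 and 8.48 in non-targeted cells. The arrays did not overlap, and the difference of 0.51 (95% interval 0.03 to 0.99) fell to 0.31 without targeted replicate 1. Of the 15 pathway components tested, Ctnnb1 included, 6 were higher and 9 lower, with a median of -0.03. Of 13 Wnt target and feedback genes tested 9 were higher and 4 lower, with a median of 0.10. The one with separate arrays was Ccnd1, the cyclin D1 gene, at 8.18, 7.46 and 6.97 in targeted cells and 6.96, 6.94 and 6.78 in non-targeted cells. The lowest targeted array of Ccnd1, at 6.966, lay barely above the highest non-targeted one, at 6.958. Its difference of 0.64 (95% interval -0.03 to 1.32) fell to 0.32 without targeted replicate 1. Arrays separated for 1 of the 15 components and 1 of the 13 target genes, against 9.07% of all genes tested. No component or target gene passed over all genes tested.

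**Figure D4:**
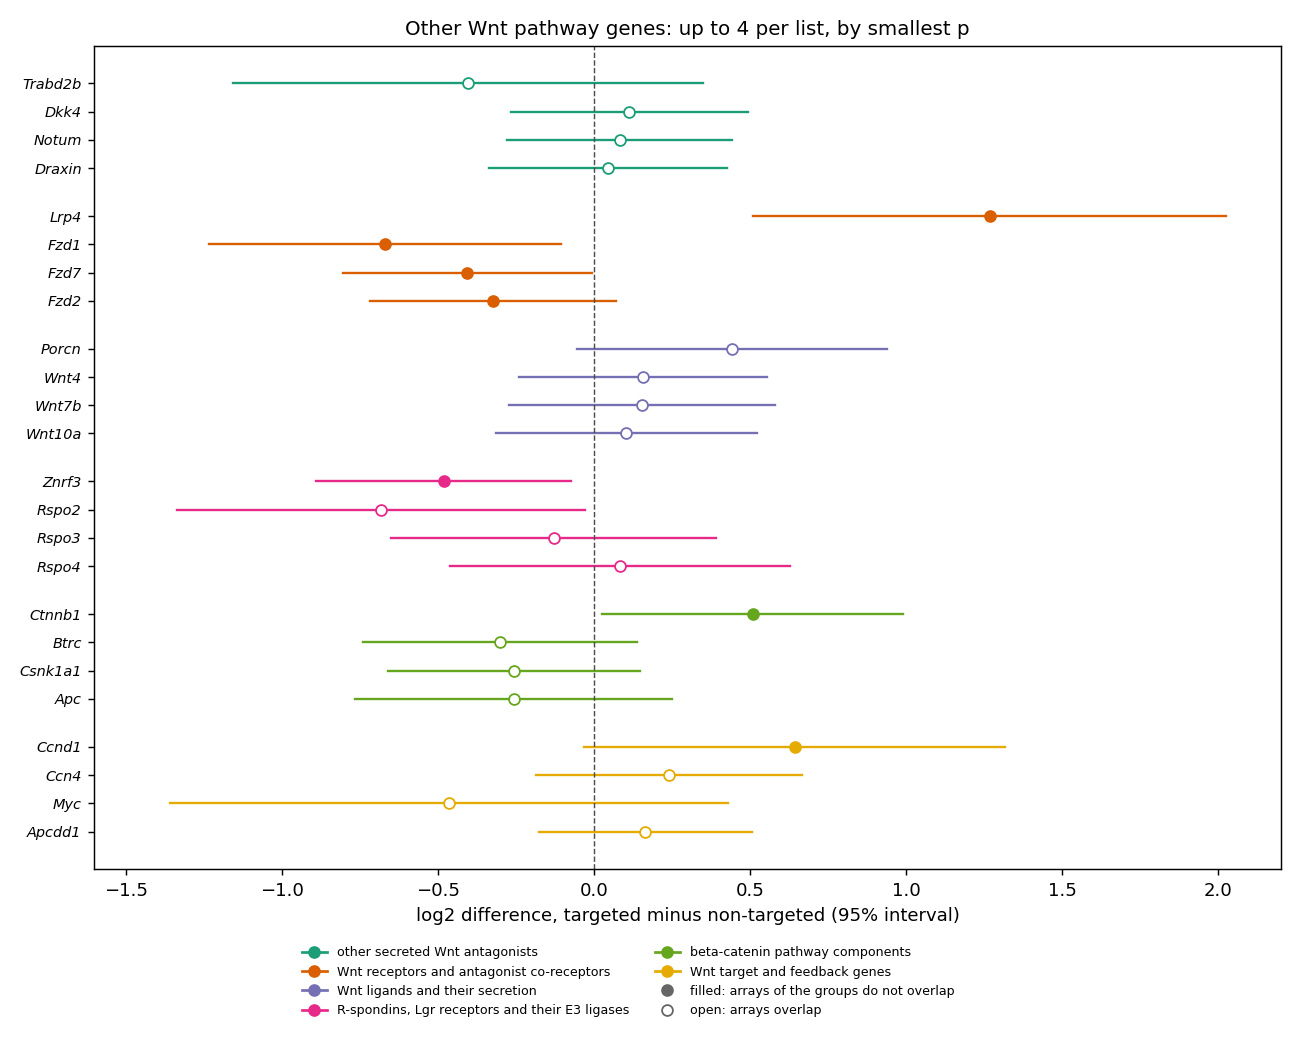
Log2 difference (horizontal axis, targeted minus non-targeted, with 95% intervals from limma) of up to 4 genes from each of 6 lists of other Wnt pathway genes, taken by smallest p within the list. Filled points, such as Lrp4 at 1.27 and Fzd1 at -0.67, are genes whose arrays did not overlap between the groups.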

How the data were processed

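Per the labels, total RNA of sorted cells was amplified with a kit for picogram amounts and hybridised to Affymetrix arrays, 1 per sample. The deposited values are intensities on a linear scale, which the submitters' processing notes credit to RMA and Affymetrix Expression Console 1.4. Which annotation and build they used is not given in the sources used here. The log2 of each intensity was taken. Of 35556 probe sets 21789 named exactly 1 gene in the platform's annotation; symbols were updated through Entrez identifiers in RefSeq GRCm38.p6 (21698 matched). For each of 19938 genes the probe set with the highest mean over 6 arrays was kept. The 33.3% of genes with the lowest means were left out as dim.

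The test was limma 3.58.1 (R 4.3.3) with lmFit and eBayes and no covariate, two-sided, with Benjamini-Hochberg adjustment over all 13292 genes tested and a threshold of 0.05. Standard errors and 95% intervals come from the moderated variances. The procedure was tested on simulated data. With 200 of 13292 genes changed, 61.9% of 2-fold and 99.7% of 8-fold changes were called there. On the real arrays Dmp1, at 9.7-fold, did not pass (limma, adjusted p = 0.384). The simulated rates therefore do not carry over to these arrays. Figures used matplotlib 3.10.9. Members, gene lists and the rule for named genes were chosen with earlier results of these data known. That rule took the 10 members, up to 4 genes of each Wnt list by smallest p, Dmp1 and Cxcl12, and the 3 genes most correlated with each tested member; those the results turn on are given. Marker lists of 12 cell types were fixed; osteoblast, periosteal and fibroblast, neutrophil and CAR cell markers are described. The other lists had median differences of 0.12 for osteocytes, 0.09 for chondrocytes, 0.07 for macrophages, -0.02 for B cells, 0.06 for erythroid cells, 0.15 for endothelial cells, 0.0026 for megakaryocytes and 0.13 for osteoclasts. Alternatives were other filters, scalings and variance models, array weights, averaged probe sets, the replicate number as a block, and leaving out each array. Detection calls were not used here, and precision is limited by 3 arrays per group.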

Additional observations from a re-analysis of the deposited data

How the results depend on the processing

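No antagonist gene passed in any of the 17 alternatives that tested it. Frzb was tested only without the filter, and Sfrp5, Dkk1 and Dkk2 were not tested under the stricter filter. Wif1, Sfrp1, Sfrp4, Sfrp5 and Dkk3 kept their direction in all 17. Filters, variance models and replicate blocks cannot change a difference, nor can averaging for genes with 1 probe set. Only the scalings, array weights and left-out arrays could have turned it. The adjusted p of Wif1 ran from 0.122, with array weights, to 1. Over all genes 1 passed with array weights and 1 with a fixed replicate block, Dmp1 both times, and 0 passed in the other 15. Dkk2 turned to -0.0047 under quantile normalization and -0.017 under cyclic loess, Frzb to 0.16 with array weights, and Trabd2b to 0.025 with averaged probe sets. Leaving out single arrays gave -0.045 to 0.14 for the median of the 10 genes, -0.49 to 0.34 for Sfrp2, -0.17 to 0.046 for Frzb, -0.0076 to 0.37 for Dkk1, -0.11 to 0.12 for Dkk2 and -0.12 to 0.17 for Sost. The cause was not tested.

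The design text names 3 mice for both populations, but nothing in the labels ties a replicate number to a mouse. The numbers were therefore not taken as pairs. Deviations of same-numbered arrays from their group means correlated at -0.26, -0.12 and 0.07 for numbers 1 to 3. Differently numbered arrays correlated at -0.26 to 0.32. These correlations over all genes cannot decide whether the groups share mice, under the same or other numbers, and this was not tested. With a fixed replicate block Wif1 had the same difference and an adjusted p of 0.847, and as a random block an adjusted p of 0.9999 (limma). For Sfrp4 the unadjusted p was 0.17 without a block, 0.062 with the fixed block and 0.27 with the random block (limma). For Sfrp2 it was 0.93, 0.84 and 0.94 in the same order (limma). Both genes had an adjusted p of 0.9999 with either block (limma).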
